A study of Mus musculus with 10 samples.

Results

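The 10 genes described here encode receptors for extracellular ATP and adenosine and the cell-surface and related enzymes that make or remove these molecules and NAD. They were chosen by symbol and not by a measured threshold (P2rx7, P2rx4, P2rx1, Art2b, Cd38, Entpd1, Nt5e, Adora2a, Ada and Dpp4), with earlier results of these data known, from the 48321 gene symbols counted in all 10 libraries, and 9 of the 10 passed the low-count filter, as did 13796 genes in all. The study sequenced RNA of CD4+ T cells sorted from the spleens of C57BL/6 mice to ask what the genome organizer SATB1 does in regulatory T cells (Tregs). WT mice gave a FoxP3+CD25+ population (Treg) and a FoxP3-CD25- population (non-Treg). KO mice carried Satb1 F/F alleles and a ThPOK-cre transgene, which deletes in the whole CD4 lineage from its commitment onwards and not in Tregs alone, and gave both populations and a FoxP3+CD25- one. FoxP3 status was read from a Gfp reporter at the Foxp3 locus, ages are not in the labels, and each of the 5 groups held 2 libraries, numbered 1 and 2 within a genotype and read here as 1 mouse per number. WT FoxP3+CD25- cells were not analysed here.

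ATP and NAD released from stressed or dying cells act on T cells from outside. P2X receptors are cation channels opened by ATP. P2X7 needs high ATP, but on mouse T cells it can also be opened when ARTC2.2, the product of Art2b, attaches ADP-ribose from NAD to it, and CD38 degrades the same NAD. CD39 (Entpd1) strips ATP and ADP to AMP, CD73 (Nt5e) turns AMP into adenosine, the adenosine receptor encoded by Adora2a raises cyclic AMP, and adenosine deaminase (Ada) removes it. CD26 (Dpp4) is a surface peptidase, known in human cells as a docking site for adenosine deaminase. Mouse Tregs are known for surface CD39 and CD73 and for their sensitivity to NAD.

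The libraries held 6094952 to 12410064 counts on named genes, and the limit of 3 counts that a count of 0 allows corresponds to 0.242 to 0.492 counts per 1000000 counts (CPM), for counting error only. Values below are CPM after edgeR's TMM scaling. The sorted populations carried their labelled markers. Foxp3 stood at 616 to 738 CPM in the 4 FoxP3+CD25+ libraries, 317 and 360 in KO FoxP3+CD25- and 17.9 to 38.8 in the FoxP3-CD25- libraries, and Il2ra (CD25) reached 16.8 at most outside the FoxP3+CD25+ libraries, which held 626 to 759. Satb1 itself, the deleted gene, was not called lower in KO than in WT libraries of either population. It was counted at 378 and 477 CPM in WT and 597 and 532 in KO FoxP3+CD25+ cells, at 816 and 879 in WT and 840 and 681 in KO FoxP3-CD25- cells (log2 -0.16, FDR 0.927, edgeR), and at 1183 and 991 in KO FoxP3+CD25- cells. This does not check the KO label, since counts summed over a gene cannot show the loss of part of it. Both libraries of WT replicate 1 stood apart, with 14487 and 16362 Xist counts and none on the Y-linked genes Ddx3y, Eif2s3y, Kdm5d and Uty. The other 8 libraries held 0 to 4 Xist counts and 3039 to 4750 counts on these Y-linked genes. By these counts WT replicate 1 reads as female and the other mice as male, so sex was unbalanced between KO and WT. Values without WT replicate 1 are given beside results that depend on it. Markers of B, myeloid, dendritic, NK, CD8 T, platelet and red cells each summed to 25.6 CPM or less in every library. In these bulk samples fewer cells of a type and less RNA per cell cannot be told apart.

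Across the 9 genes tested, 5 were higher in WT FoxP3+CD25+ than in WT FoxP3-CD25- cells at a Benjamini-Hochberg adjusted p (FDR) under 0.05 in edgeR's quasi-likelihood test, and none was lower. They were P2rx7, Cd38, Entpd1, Nt5e and Adora2a. Of all 13796 genes tested, 7.15% were higher in this comparison. The median log2 fold change was 0.84 over the 9 genes and -0.02 over all genes. In KO mice 3 of the 9, P2rx7, Cd38 and Nt5e, were higher in FoxP3+CD25+ than in FoxP3-CD25- cells, where 3.52% of all genes were. With the mouse as a block this count was 5, the added genes being Entpd1 and Art2b. Without WT replicate 1, P2rx7 (log2 2.15), Cd38 (2.40), Entpd1 (3.28) and Nt5e (1.85) were called in WT, with FDR of 0.00903 or less, and Adora2a was not. With the mouse as a block 7 of the 9 were called in WT, the added genes being Art2b and Dpp4. The shares of all genes above are from the fit without the block. The blocked fit called more of all genes in both genotypes, with counts in the closing section. P2rx4 and Ada passed the threshold in neither genotype, with or without the block, and Dpp4 in neither without it.

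Other markers than those of Tregs moved with the Treg over non-Treg comparisons. The B cell marker Cd79b, a B cell receptor subunit, was higher in Treg cells, at 16.8 ± 3.12 against 1.11 ± 0.411 CPM in WT and 14.5 ± 0.166 against 4.14 ± 1.39 CPM in KO (mean ± SD, n = 2), a level near those of Cd38 and Entpd1. Ms4a1 had 0 to 5 counts and Pax5 at most 10 in a library, and Cd79a at most 2.95 CPM. In WT the dendritic cell marker Zbtb46 was higher (log2 2.24), as the 1 marker tested of 5, and the NK cell marker Eomes lower (log2 -2.81). In KO the myeloid marker Itgam was lower (log2 -1.75), the 1 called of 3 tested, with Csf1r at 13.1 against 13.4 CPM. Lyz2, Adgre1 and Cd14 had higher means in KO Treg cells and Fcgr3 a lower one, all under 1 CPM. Of the exonic bases of Itgam 68.7% are shared with Gm49368 on the same strand. Naive T markers were lower in Treg cells, 4 of 5 called in WT and 3 of 5 in KO, with sums of 2425 to 2905 against 5123 to 5499 CPM in WT and 2605 to 2656 against 4792 to 4883 CPM in KO. Of 6 effector or memory markers, 3 (Ifng, Tbx21 and Cxcr3) were lower in KO, while in WT Cd44 was higher and Ifng lower. The part of these markers in the members' levels was not tested.

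**Figure D1:**
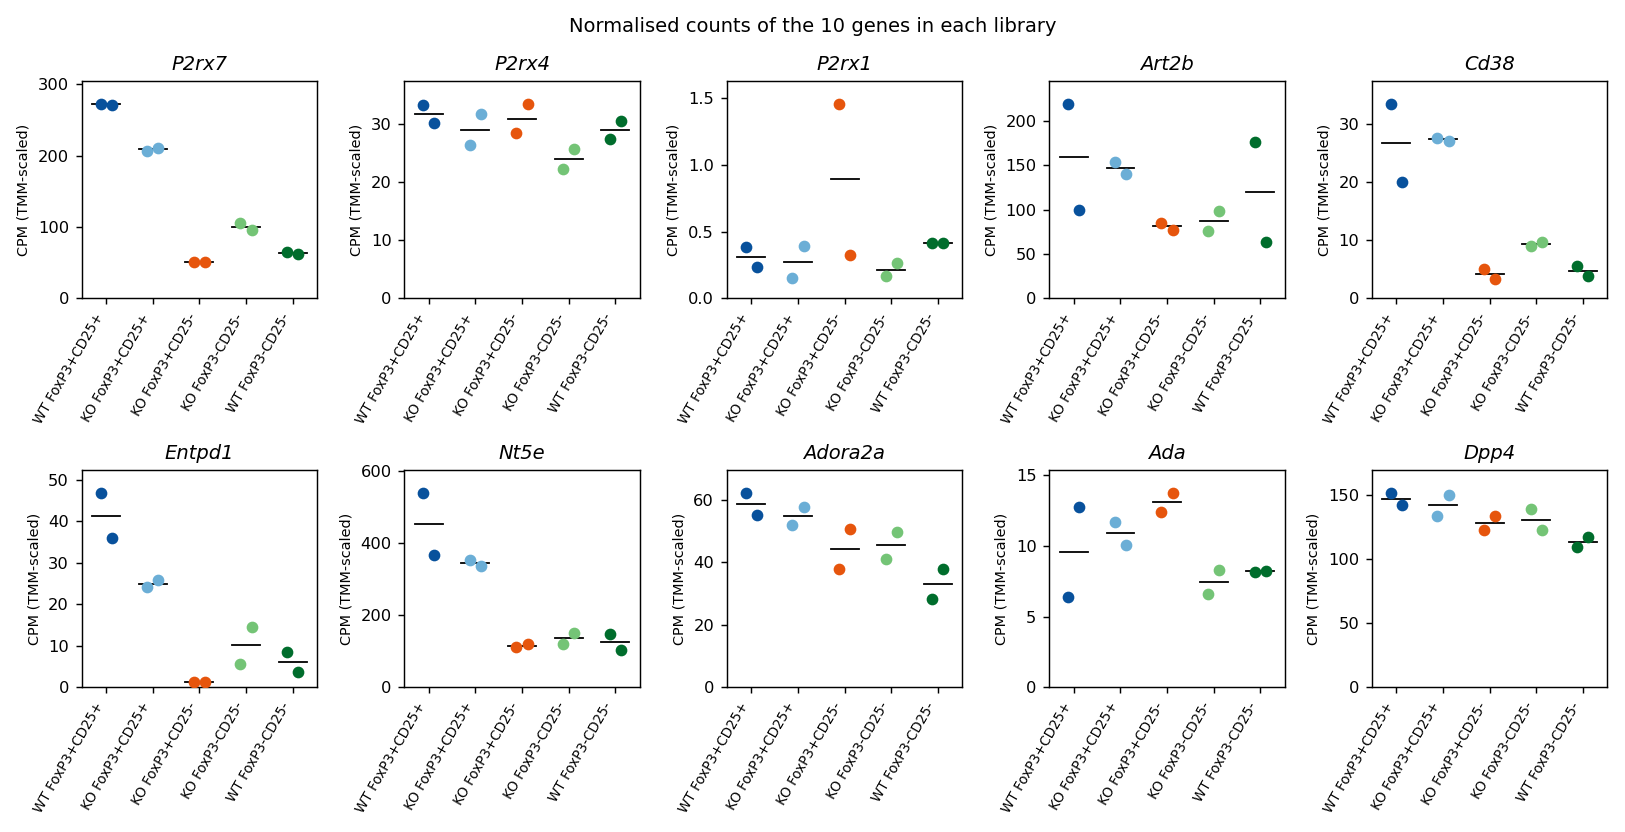
Each panel shows 1 gene and each point 1 library (replicate 1 left, replicate 2 right), with the CPM on a linear axis from 0 and a line at the mean of the 2 libraries. P2rx7, Cd38, Entpd1 and Nt5e are highest in the 4 FoxP3+CD25+ libraries, while P2rx4 stays between 22.3 and 33.4 CPM and P2rx1 at or below 1.45 CPM in all libraries.

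Counted per kilobase of merged exon, which allows levels of different genes to be set side by side, Art2b, Nt5e and P2rx7 led in WT FoxP3+CD25+ cells with 56.3 ± 29.7, 52.5 ± 14.2 and 45.5 ± 0.0492 CPM per kilobase (mean ± SD, n = 2). The ranges of these 3 overlapped. Dpp4 (23.2 ± 1.01) and Adora2a (19.2 ± 1.59) followed. Entpd1 (7.42 ± 1.38), Cd38 (6.86 ± 2.42), Ada (4.77 ± 2.24) and P2rx4 (4.52 ± 0.317) were several times lower, on the same per-length scale. In WT FoxP3-CD25- cells Art2b (42.5 ± 28), Dpp4 (17.9 ± 0.845), Nt5e (14.5 ± 3.84), Adora2a (10.8 ± 2.19) and P2rx7 (10.7 ± 0.477) were the highest, and Cd38 (1.20 ± 0.314) and Entpd1 (1.09 ± 0.599) were close to the bottom of the list. Thus, per length, P2rx7 exceeded Dpp4 in the WT FoxP3+CD25+ libraries and lay below it in the WT FoxP3-CD25- libraries.

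P2rx7 encodes the P2X7 channel and lies on the plus strand of chr5:122643911-122691432 (GRCm38), where 119 of its 5970 exonic bases are shared with the microRNA gene Mir8115. Its 2 annotated starts are given here because its libraries did not overlap between any of the 5 groups. Not all neighbouring groups differed at an FDR under 0.05. The windows run from 250 bases before to 50 bases after each RefSeq start (GRCm38.p6), at chr5:122643677-122643976 and chr5:122650133-122650432, and capitals mark an AP-1 motif, TGANTCA, which reads the same on both strands.

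P2rx7 upstream start: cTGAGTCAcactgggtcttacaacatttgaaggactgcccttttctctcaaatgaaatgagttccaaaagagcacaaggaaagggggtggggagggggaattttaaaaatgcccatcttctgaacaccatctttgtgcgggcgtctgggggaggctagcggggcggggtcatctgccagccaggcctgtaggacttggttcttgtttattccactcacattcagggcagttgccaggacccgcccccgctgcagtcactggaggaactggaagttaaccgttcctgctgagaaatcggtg
P2rx7 downstream start: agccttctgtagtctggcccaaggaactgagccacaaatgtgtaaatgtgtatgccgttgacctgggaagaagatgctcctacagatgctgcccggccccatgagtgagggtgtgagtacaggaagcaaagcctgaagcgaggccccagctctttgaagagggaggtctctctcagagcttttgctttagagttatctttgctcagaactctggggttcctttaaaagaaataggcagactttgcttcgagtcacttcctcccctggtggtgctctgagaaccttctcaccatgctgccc

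This motif occurs in 7.81% of the 32851 RefSeq promoter windows of this length, and among the 11 windows of 9 of the genes (Adora2a had none) it was found in 2, the upstream one of P2rx7 and that of Art2b. The forkhead motif GTAAACA (3.65% of windows) and the Runx motif TGTGGTT (5.27%), searched on both strands, were found in 0 of the 11. These matches describe letters only.

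In WT FoxP3+CD25+ cells P2rx7 was counted at 272.1 and 271.7 CPM, and in KO FoxP3+CD25+ cells at 206 and 211.6 CPM. In FoxP3-CD25- cells the values were 65.7 and 61.7 CPM in WT and 105.1 and 96.4 CPM in KO. In KO FoxP3+CD25- cells they were 51.3 and 50.6 CPM. No 2 groups overlapped, and the order from high to low was WT Treg, KO Treg, KO non-Treg, WT non-Treg and KO FoxP3+CD25-. The share of all genes with 5 groups apart in this way was not counted. P2rx7 was 4.27-fold higher in Treg than in non-Treg cells of WT mice (log2 2.09, SE 0.10, FDR 1.02e-06) and 2.07-fold higher in those of KO mice (log2 1.05, SE 0.10, FDR 0.000137, edgeR). Within each pair of libraries with the same number the ratio was 4.14 and 4.40 in WT and 1.96 and 2.20 in KO, so both WT ratios lay above both KO ratios.

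The Treg minus non-Treg difference of P2rx7 was smaller in KO than in WT by 1.04 on the log2 scale (SE 0.14, 95% interval 0.74 to 1.34). With edgeR across all 13796 genes this had an FDR of 0.157 and was not called, and 0% of genes were. With the mouse as a block the FDR was 0.0039 and P2rx7 was 1 of 148 genes called. Its FDR was 0.000918 in DESeq2, which called 25 genes, and 0.0292 without the low-count filter. With 1 of the 8 libraries left out at a time it was 0.0336 in 1 case, without WT Treg replicate 2, and 0.417 to 0.994 in the other 7, and without both libraries of WT replicate 1 it was 0.381. The log2 difference stayed between -1.10 and -0.99. None of the other 8 genes was called for this difference by edgeR, with the block or by DESeq2. At an unadjusted p under 0.05 edgeR counted 3 of the 9 (P2rx7, Entpd1 and Cd38), beside 685 of all 13796 genes. In FoxP3+CD25+ cells the KO minus WT log2 difference of P2rx7 was -0.38 and was not called (95% interval -0.59 to -0.17, FDR 1). P2rx7 was 0.66 higher on the log2 scale in KO than in WT FoxP3-CD25- cells (SE 0.10, 1.58-fold, FDR 0.0327, edgeR).

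P2rx7 was the 1 gene of the 9 called between KO and WT non-Treg cells, where 0.145% of all genes were called and 0.116% were higher in KO. The call was lost when any 1 of the 4 libraries was left out (FDR 0.111 to 0.289), and without both libraries of WT replicate 1 the FDR was 0.0694, with the log2 difference between 0.61 and 0.72 in the former. Markers moved with this comparison. The sum of 8 Treg markers was 232 to 356 CPM in WT and 469 to 488 CPM in KO non-Treg cells, and that of 6 effector or memory markers (such as Cd44, Cxcr3 and Ifng) 144 to 228 and 296 to 334 CPM, with 0 markers of either list called. Their part in the P2rx7 difference was not tested.

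In KO FoxP3+CD25- cells P2rx7 was 1.98-fold lower than in KO non-Treg cells (log2 -0.98, SE 0.10, FDR 0.000832) and 4.10-fold lower than in KO Treg cells (log2 -2.04, SE 0.10, FDR 2.47e-06, edgeR). It was thus below the non-Treg level in cells that expressed Foxp3. Against WT non-Treg cells the difference was -0.32 (95% interval -0.54 to -0.10, FDR 0.262) and was not called.

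P2rx4, the next P2X gene, starts downstream of P2rx7 on the same strand (chr5:122707544-122729738) and shares no stretch of 50 bases with it. It did not follow its neighbour. Its CPM was 33.3 and 30.2 in WT Treg, 26.3 and 31.8 in KO Treg, 28.4 and 33.4 in KO FoxP3+CD25-, 27.4 and 30.6 in WT non-Treg and 22.3 and 25.6 in KO non-Treg cells. KO non-Treg cells were the lowest and the other 4 groups overlapped. The Treg over non-Treg log2 difference was 0.13 in WT (95% interval -0.21 to 0.47) and 0.28 in KO (-0.08 to 0.64), and no comparison called it. P2rx1 (chr11:72999103-73015200) had 33 counts in all, 1 to 9 in a library, and was not tested.

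**Figure D2:**
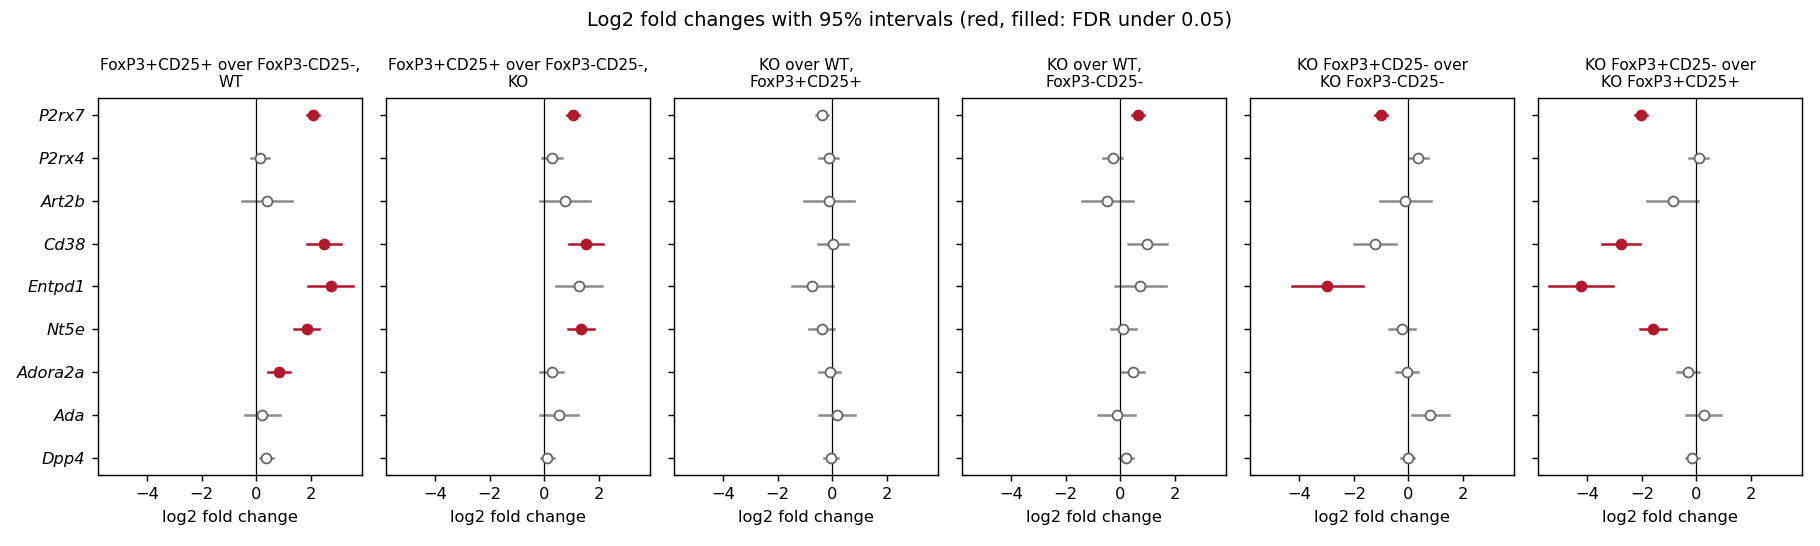
Points are log2 fold changes from edgeR and lines their 95% intervals for the 9 genes tested, in 6 comparisons, with filled red points at an FDR under 0.05. P2rx7, Cd38 and Nt5e are red in both Treg over non-Treg panels, no gene is red for KO over WT in FoxP3+CD25+ cells, and P2rx7 alone is red for KO over WT in FoxP3-CD25- cells.

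Art2b encodes ARTC2.2, the ADP-ribosyltransferase that modifies P2X7 (chr7:101576970-101585600, minus strand). It had 218.6 and 99.8 CPM in WT Treg and 176.1 and 64.1 CPM in WT non-Treg cells, 153.9 and 140.4 in KO Treg, 75.4 and 98.3 in KO non-Treg and 85.3 and 76.6 in KO FoxP3+CD25- cells. Both WT replicate 1 libraries were high and both WT replicate 2 libraries low, so the WT groups overlapped. Within each pair of same-numbered libraries Art2b was higher in Treg than in non-Treg cells, by 1.24 and 1.56 times in WT and 2.04 and 1.43 times in KO, in 4 of 4 pairs. Without a block neither genotype passed (FDR 0.651 in WT and 0.455 in KO), and with the mouse as a block both did (log2 0.47, FDR 0.0257 in WT; log2 0.76, FDR 0.00278 in KO, edgeR). KO FoxP3+CD25- cells lay 0.86 below KO Treg cells on the log2 scale, with an FDR of 0.307 without and 0.00107 with the block. Its promoter window (chr7:101581112-101581411, minus strand, GRCm38.p6) is shown because it holds the other AP-1 match, in capitals. The window lies within the GENCODE gene span given above, so its RefSeq start is downstream of the outermost GENCODE start.

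Art2b: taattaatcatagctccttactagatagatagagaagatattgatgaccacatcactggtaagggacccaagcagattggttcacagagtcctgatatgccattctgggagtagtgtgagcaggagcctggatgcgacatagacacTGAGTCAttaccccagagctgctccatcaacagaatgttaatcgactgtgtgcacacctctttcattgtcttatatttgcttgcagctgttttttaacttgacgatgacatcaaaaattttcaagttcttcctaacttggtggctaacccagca

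Art2b has a near copy beside it, Art2a-ps, annotated as a polymorphic pseudogene. Of the 2826 stretches of 50 bases in Art2b transcripts, 142 (5.02%) also occur in Art2a-ps, as do 11.8% of the stretches in Art2a-ps, so both counts are uncertain where reads of 50 bases fall there. Art2a-ps was at 31.0 and 11.7 CPM in WT Treg and 7.52 and 7.11 in WT non-Treg cells, the higher level again in replicate 1 for the Treg pair. It was called between these groups (log2 1.53, SE 0.41, FDR 0.0334, edgeR) but not without WT replicate 1 (log2 0.72, FDR 0.464), while Art2b was called in neither.

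Cd38 encodes the main NAD-consuming ectoenzyme (chr5:43868553-43912375, plus strand). Its CPM was 33.3 and 20.0 in WT Treg and 27.6 and 27.1 in KO Treg cells, against 5.54 and 3.81 in WT non-Treg, 9.08 and 9.73 in KO non-Treg and 5.0 and 3.28 in KO FoxP3+CD25- cells. All 4 FoxP3+CD25+ libraries lay above the other 6. Cd38 was 5.61-fold higher in Treg than in non-Treg cells of WT (log2 2.49, SE 0.29, FDR 0.000272) and 2.89-fold higher in those of KO mice (log2 1.53, SE 0.28, FDR 0.00784, edgeR). The KO call was lost without KO non-Treg replicate 1 (FDR 0.0627) or replicate 2 (FDR 0.059). KO and WT Treg cells differed by 0.04 on the log2 scale (95% interval -0.51 to 0.58). In non-Treg cells both KO libraries were above both WT libraries, but the difference of 0.99 (95% interval 0.28 to 1.70) had an FDR of 0.394.

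Cd38 was 6.77-fold lower in KO FoxP3+CD25- than in KO Treg cells (log2 -2.76, SE 0.31, FDR 0.000455, edgeR). Against KO non-Treg cells the difference was -1.23 (95% interval -2.00 to -0.45) with an FDR of 0.141, or 0.0124 with the mouse as a block and 0.0386 in DESeq2. Its promoter window, chr5:43868559-43868858 on the plus strand, is shown with that of Nt5e, chr9:88327359-88327658 on the plus strand (both GRCm38.p6), because these genes had high levels in the same 4 libraries while the windows differ in composition. That of Cd38 holds 1 CpG at 51.7% GC and that of Nt5e 23 CpG at 71% GC, and neither holds any of the 3 motifs. Both windows lie within the GENCODE spans of their genes, so these RefSeq starts are also downstream of the outermost GENCODE ones.

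Cd38: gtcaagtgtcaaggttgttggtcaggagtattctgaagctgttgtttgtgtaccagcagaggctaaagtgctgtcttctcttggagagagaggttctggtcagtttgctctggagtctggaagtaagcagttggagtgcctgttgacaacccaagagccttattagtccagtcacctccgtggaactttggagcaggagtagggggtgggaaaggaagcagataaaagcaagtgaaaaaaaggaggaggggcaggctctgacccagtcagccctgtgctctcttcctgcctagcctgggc
Nt5e: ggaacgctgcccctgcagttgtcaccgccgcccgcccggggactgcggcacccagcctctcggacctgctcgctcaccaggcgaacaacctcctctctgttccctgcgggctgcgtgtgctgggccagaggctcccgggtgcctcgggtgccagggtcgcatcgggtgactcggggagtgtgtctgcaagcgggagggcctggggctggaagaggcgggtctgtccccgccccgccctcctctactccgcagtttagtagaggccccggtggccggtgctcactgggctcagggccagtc

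Entpd1 encodes CD39, the ectonucleotidase that removes ATP and ADP (chr19:40612366-40741602, plus strand). It was counted at 46.9 and 36.0 CPM in WT Treg and 24.1 and 25.9 CPM in KO Treg cells. In non-Treg cells it was at 8.43 and 3.71 CPM in WT and 5.61 and 14.6 CPM in KO. In KO FoxP3+CD25- cells it was at 1.29 and 1.31 CPM, from 8 and 12 counts. The 4 Treg libraries were the highest, the 2 KO FoxP3+CD25- libraries the lowest, and the non-Treg groups overlapped.

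Entpd1 was 6.65-fold higher in WT Treg than in WT non-Treg cells (log2 2.73, SE 0.38, FDR 0.000824, edgeR), and by log2 3.48 without WT non-Treg replicate 1 (FDR 0.00259). In KO the difference was 1.27 (95% interval 0.42 to 2.12) with an FDR of 0.0915, or 0.00815 with the mouse as a block and 0.0148 in DESeq2. The KO replicate 2 ratio was 1.77 against 4.29 for replicate 1, and 5.56 and 9.70 in WT. Both KO Treg libraries were below both WT Treg libraries, but the log2 difference of -0.73 (95% interval -1.47 to 0.02) had an FDR of 1.

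Entpd1 showed the largest fall of the 9 genes in KO FoxP3+CD25- cells, by log2 fold change. It was 19.0-fold lower than in KO Treg (log2 -4.25, SE 0.53, FDR 0.000763) and 7.88-fold lower than in KO non-Treg cells (log2 -2.98, SE 0.59, FDR 0.0336, edgeR). The latter call was lost without KO FoxP3+CD25- replicate 1 (FDR 0.164), KO FoxP3+CD25- replicate 2 (FDR 0.279) or KO non-Treg replicate 2 (FDR 0.277), and in a fit of the compared libraries alone (FDR 0.0546). The log2 difference was -2.09 without KO non-Treg replicate 2 and -3.47 without KO non-Treg replicate 1. Against WT non-Treg cells the log2 difference was -2.24 (95% interval -3.58 to -0.90) with an FDR of 0.184, or 0.00128 in DESeq2 and 0.0321 without the low-count filter.

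Nt5e encodes CD73, which makes adenosine from AMP (chr9:88327197-88372092, plus strand). It had 538.5 and 365.3 CPM in WT Treg, 353.1 and 335 in KO Treg, 148.2 and 101.5 in WT non-Treg, 118.4 and 151.5 in KO non-Treg and 111 and 118.7 in KO FoxP3+CD25- cells. The Treg libraries were all above 335 CPM or at it, and the other 6, which overlapped between groups, were below 152 CPM. Nt5e was 3.61-fold higher in Treg than in non-Treg cells of WT (log2 1.85, SE 0.21, FDR 0.000269) and 2.55-fold higher in those of KO mice (log2 1.35, SE 0.21, FDR 0.00325, edgeR). It was 2.99-fold lower in KO FoxP3+CD25- than in KO Treg cells (log2 -1.58, SE 0.21, FDR 0.0012). Unlike for P2rx7 and Entpd1, its difference from KO non-Treg cells was not called (log2 -0.23, 95% interval -0.70 to 0.23, FDR 0.871), nor was that between KO and WT Treg cells (log2 -0.39, 95% interval -0.85 to 0.06, FDR 1).

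**Figure D3:**
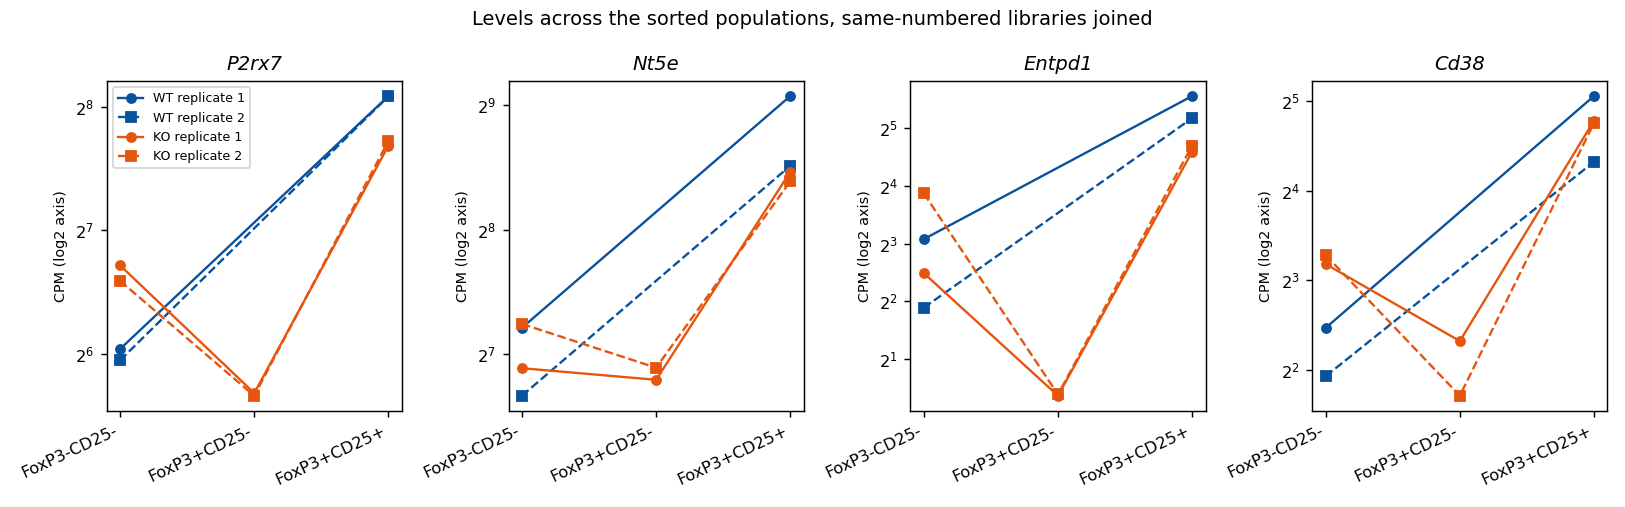
CPM on a log2 axis for 4 genes, with the libraries of the same genotype and number joined by a line (circles, replicate 1; squares, replicate 2). The P2rx7 lines of the 2 WT pairs rise by 4.14 and 4.40 times and those of the 2 KO pairs by 1.96 and 2.20 times from FoxP3-CD25- to FoxP3+CD25+, with the KO FoxP3+CD25- points the lowest.

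Adora2a encodes the adenosine receptor that raises cyclic AMP (chr10:75316877-75334784, plus strand). It was at 62.2 and 55.3 CPM in WT Treg, 51.9 and 57.7 in KO Treg, 41.1 and 49.7 in KO non-Treg, 37.7 and 50.8 in KO FoxP3+CD25- and 28.2 and 37.7 in WT non-Treg cells. WT non-Treg cells were the lowest, and the Treg groups overlapped with each other. Adora2a was 1.79-fold higher in WT Treg than in WT non-Treg cells (log2 0.84, SE 0.18, FDR 0.0122, edgeR), a call lost without the replicate 1 library of WT Treg (FDR 0.0738), that of WT non-Treg (FDR 0.114) or both (FDR 0.278). In KO the difference was 0.27 (95% interval -0.14 to 0.67, FDR 0.582). The change in this difference between genotypes was -0.57 (95% interval -1.14 to 0.00) with an FDR of 1, so the genotypes were not shown to differ.

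Ada, adenosine deaminase (chr2:163726584-163750239, minus strand), was low, at 6.39 to 13.8 CPM. KO FoxP3+CD25- cells held the highest mean, from 12.4 and 13.8 CPM, against 6.60 and 8.28 in KO non-Treg and 8.18 and 8.24 in WT non-Treg cells. The log2 difference from KO non-Treg cells was 0.81 (95% interval 0.14 to 1.48, FDR 0.339), and no comparison called it. The WT Treg values of 6.39 and 12.7 CPM spanned most of the range.

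Dpp4, coding for CD26 (chr2:62330073-62412231, minus strand, with 232 exonic bases covered by the antisense gene Gm13561), was between 109 and 151 CPM in all libraries. WT Treg cells held 151.2 and 142.2 CPM and WT non-Treg cells 109.4 and 117 CPM. These did not overlap, and the log2 difference of 0.37 (95% interval 0.13 to 0.62) had an FDR of 0.0557, or 0.0219 with the mouse as a block and 0.0486 with RLE scaling. KO Treg (133.5 and 149.6 CPM) and KO non-Treg cells (139 and 122.1 CPM) overlapped, as did KO FoxP3+CD25- cells (122.8 and 133.6 CPM) with both.

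Between KO and WT Treg cells, 0 of the 9 genes were called by edgeR, with the block on the number or by DESeq2, where 0.00725% of all genes were. At an unadjusted p under 0.05 edgeR counted 1 (P2rx7), beside 592 of all 13796 genes. The 95% intervals allowed a fall of P2rx7 of up to 0.59, of Nt5e of up to 0.85 and of Entpd1 of up to 1.47 on the log2 scale. For each of these 3 genes both KO libraries were below both WT libraries. Exact permutation gives p = 0.333 for any such separation of 2 against 2 libraries, and its share over all genes was not counted. The KO and WT Treg libraries of P2rx4, Adora2a, Cd38, Art2b, Ada and Dpp4 overlapped. Between KO FoxP3+CD25- and WT non-Treg cells, 0 of the 9 were called by edgeR, where 0.768% of all genes were, and DESeq2 called Entpd1. At an unadjusted p under 0.05 edgeR counted 4 (P2rx7, Entpd1, Adora2a and Ada), beside 1214 of all 13796 genes.

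KO FoxP3+CD25- cells differed from KO non-Treg cells in 2 of the 9 genes, both lower (P2rx7 and Entpd1), where 1.35% of all genes were lower. They differed from KO Treg cells in 4, all lower (P2rx7, Entpd1, Nt5e and Cd38), where 4.76% of all genes were lower. They differed from WT Treg cells in the same 4 genes, where 7.34% of all genes were lower, by log2 -2.42 for P2rx7 (SE 0.10), -4.97 for Entpd1 (SE 0.51), -1.98 for Nt5e (SE 0.21) and -2.72 for Cd38 (SE 0.31), with FDR of 0.000281 or less in edgeR. These comparisons share the KO FoxP3+CD25- libraries. The median log2 fold change of the 9 genes was -0.11 against KO non-Treg, -0.86 against KO Treg and -0.98 against WT Treg cells, beside 0.01, 0.00 and 0.02 over all genes.

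Effector or memory markers moved with the low levels in KO FoxP3+CD25- cells. The sum of the 6 markers was 28.5 to 32.4 CPM there, 296 to 334 in KO non-Treg, 144 to 228 in WT non-Treg, 148 to 160 in KO Treg and 183 to 303 in WT Treg cells, and 5 of the 6 were called lower than in KO non-Treg cells. The sum of 3 NK cell markers was 2.40 to 3.06 CPM against 12.4 to 23.3 in KO non-Treg cells. Most of this sum was Eomes, since Ncr1 had no counts in either group and Klrb1c a mean of 0.273 against 2.96 CPM. The 8 Treg markers summed to 588 to 746 CPM, against 3561 to 3887 in KO Treg cells, with all 8 called lower. Cd79b was also lower than in KO Treg cells. Against KO Treg cells 2 of the 6 effector or memory markers were lower and 3 of the 5 naive T markers higher. The 5 naive T markers were at 4825 to 5153 CPM in KO FoxP3+CD25- and 4792 to 4883 CPM in KO non-Treg cells. The part of these markers in the levels of P2rx7, Entpd1, Cd38 and Nt5e was not tested.

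**Figure D4:**
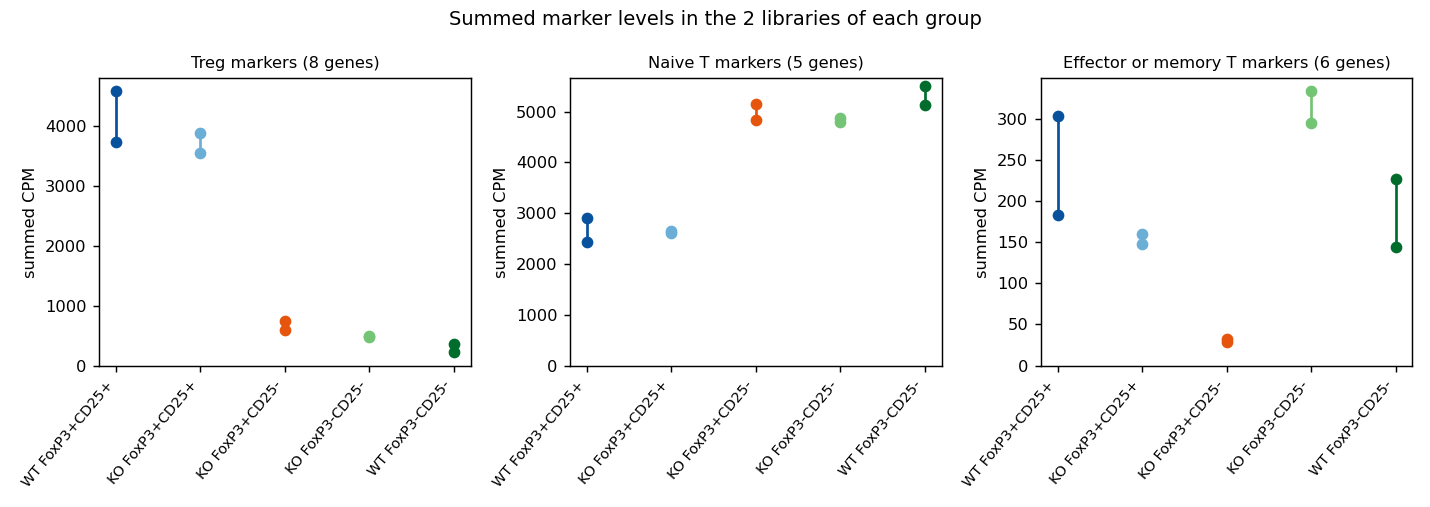
Summed CPM of 8 Treg, 5 naive T and 6 effector or memory T markers, with the points at the lower and higher library of each group and a line joining them. KO FoxP3+CD25- cells hold 28.5 to 32.4 CPM of effector or memory markers, the lowest of the 5 groups, and 588 to 746 CPM of Treg markers, far below the FoxP3+CD25+ groups.

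Of 60 other genes of the pathway with a row in the files, 36 passed the filter. In WT mice 9 of these were called between Treg and non-Treg cells, where 10.9% of all genes were, with 5 higher and 4 lower. The count was 4 without WT Treg replicate 1, 5 without WT non-Treg replicate 1, 3 without WT non-Treg replicate 2 and 1, Nampt (log2 0.67, FDR 0.0433), without both libraries of WT replicate 1. The other 8 then had FDR of 0.0613 to 0.607 with the same signs, among them Ampd1 (log2 -1.66, FDR 0.0613), Slc29a1 (log2 0.65, FDR 0.206), Adk (log2 -0.32, FDR 0.519) and Art2a-ps (log2 0.72, FDR 0.464). The higher ones were Slc29a1, an equilibrative nucleoside transporter (88.4 and 70.8 CPM against 53.1 and 45.5; log2 0.69, SE 0.18, FDR 0.0281), Nampt, the rate-limiting enzyme of NAD salvage (79.2 and 89.2 against 56.5 and 56.2; log2 0.58, SE 0.11, FDR 0.00727), Alpl, Art3 and Art2a-ps. The lower ones were Adk, adenosine kinase (29.0 and 42.8 against 62.1 and 53.6; log2 -0.69, SE 0.19, FDR 0.0371), Ampd1, an AMP deaminase (1.92 and 2.71 against 6.78 and 8.65; log2 -1.71, SE 0.32, FDR 0.00513), Entpd5 and Art4. In each of these the groups did not overlap. Alpl rested on few counts, 45 in the WT Treg libraries together and 6 in the WT non-Treg ones.

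In KO mice 4 of the 36 were called between Treg and non-Treg cells, all lower, where 2.81% of all genes were lower. With the mouse as a block the count was 8, in a fit that also called more of all genes. Without the block it was 1 when either KO Treg library or KO non-Treg replicate 1 was left out. The 4 genes were Ampd1, Entpd5, Nmnat2 and P2ry1, an ADP receptor. P2ry1 had 10.4 and 8.28 CPM in KO non-Treg cells and 0.305 and 0 in KO Treg, 0.484 and 0.546 in KO FoxP3+CD25-, 2.31 and 1.65 in WT non-Treg and 1.66 and 0.354 in WT Treg cells. It was the 1 gene of the 36 called between KO FoxP3+CD25- and KO non-Treg cells (log2 -4.12, SE 0.57, FDR 0.00338, edgeR), where 1.35% of all genes were lower. Its counts in KO FoxP3+CD25- cells were near the limit of 3, and the call was lost without KO FoxP3+CD25- replicate 2.

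KO FoxP3+CD25- and KO Treg cells differed in 10 of the 36 with the mouse as a block, in a fit that also called more of all genes. In the reported fit they differed in 5, where 7.01% of all genes did. With any 1 of the 4 libraries left out they differed in 1 or 2. Adk (98.1 and 93.1 against 50.4 and 43.9 CPM; log2 1.02, SE 0.18, FDR 0.00651) and Ampd1 were higher. Slc29a1 (43.6 and 35.0 against 77.5 and 60.8 CPM; log2 -0.82, SE 0.18, FDR 0.0194), the concentrative nucleoside transporter Slc28a2 (60.3 and 71.7 against 105 and 105 CPM; log2 -0.67, SE 0.16, FDR 0.0251) and Alpl were lower. Alpl rested on few counts, 1 in the KO FoxP3+CD25- libraries together against 24 in the KO Treg and 45 in the WT Treg libraries. Against WT Treg cells 9 of the 36 were called, where 11.2% of all genes were, with Adk and Ampd1 higher and Alpl, Ampd2, Art2a-ps, Art3, Nampt, Slc28a2 and Slc29a1 lower. This count was 4 without KO FoxP3+CD25- replicate 2 and 6 without WT replicate 1, the lost calls being Ampd1, Ampd2 and Art2a-ps. Between KO and WT, 0 of the 36 were called in Treg or in non-Treg cells by edgeR or DESeq2. There edgeR called 0.00725% and 0.145% of all genes. At an unadjusted p under 0.05 edgeR counted 2 and 5 of the 36, beside 592 and 1106 of all 13796 genes. For the genotype change in the Treg difference 0 were called by either tool, where edgeR called 0% of all genes. Here 3 had an unadjusted p under 0.05 in edgeR, beside 685 of all genes. Between KO FoxP3+CD25- and WT non-Treg cells edgeR called 0 of the 36, where 0.768% of all genes were called, and DESeq2 3. At an unadjusted p under 0.05 edgeR counted 7, beside 1214 of all genes. The other adenosine receptors, Adora1, Adora2b and Adora3, did not pass the filter.

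Genes whose pattern over the 10 libraries was most like that of a member were ranked by Pearson's r of log2 CPM among all genes tested, as a description only. For P2rx7 these were Gm16033 (r 0.993), Gm8281 (0.993) and Naip6 (0.988), for Entpd1 Gm16976 (0.988), Fosb (0.987) and Vwa5a (0.986), for Nt5e Ncmap (0.996), Setbp1 (0.995) and Tnfrsf1b (0.990), and for Cd38 Hivep3 (0.992), Myo1e (0.989) and Tnfrsf8 (0.988). They were Prrt1 (0.973), Tgs1 (0.931) and Cacna2d4 (0.925) for P2rx4, Dip2a (0.966), Ndst1 (0.950) and Srek1ip1 (0.947) for Adora2a, Aim2 (0.937), Gm13807 (0.919) and Kif3a (0.911) for Art2b, Tex2 (0.920), Ftsj1 (0.918) and Irf9 (0.896) for Ada, and Zfp40 (0.951), Dtnb (0.944) and Plxnb1 (0.928) for Dpp4. Among the members themselves r was 0.967 between P2rx7 and Cd38, 0.940 between P2rx7 and Nt5e and 0.933 between P2rx7 and Entpd1, and 0.123 between P2rx7 and P2rx4, over the same 10 libraries. Each r mixes levels of the 5 groups with differences between the libraries of a group. Some listed genes differed little between groups, such as Aim2 (group means of 71.8 to 85.5 CPM) and Tgs1 (47.1 to 55.6 CPM). Gm8281 was near the counting limit, with group means of 0 to 1.84 CPM.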

How the data were processed

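RNA of sorted splenic CD4+ T cells was sequenced to 50 bases (NEBNext Ultra library kit, HiSeq2500) in 10 libraries. The authors aligned reads to mm10/GRCm38 with HISAT2 2.1.0 and deposited read counts per gene symbol from HTSeq 0.11.1, per their processing notes. The strand setting and annotation are not given in the sources used here. Summary lines that name no gene were left out, and 26.0% to 28.5% of reads lay on genes. Of 48321 symbols, 13796 passed edgeR's filterByExpr (minimum count 10).

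One fit of all 5 groups (edgeR 4.0.16, R 4.3.3, TMM, quasi-likelihood) gave 9 contrasts, each adjusted by Benjamini-Hochberg over all genes tested, and the scripts were tested on simulated data. Exact permutation of 2 against 2 libraries cannot go below p = 0.333. The members, pathway and marker lists were chosen with earlier results of these data known. The rule for the text was to describe all members, every other pathway gene called (values for those with known roles) and the 3 genes most like a member by Pearson's r. The labels say nothing on separate mice beyond the numbers in sample names such as WT1, so p-values measure the spread between these samples.

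Residuals of libraries with the same number correlated within genotype (0.303 in WT; 0.421 to 0.445 in KO) and hardly across (-0.011 to 0.114), so the number was taken as the mouse within a genotype. Alternatives were RLE scaling, no filter, the legacy quasi-likelihood method, a replicate block, compared libraries only, DESeq2 1.42.0, each library left out and no WT replicate 1. Gene positions and exon lengths are from GENCODE (GRCm38), promoters from RefSeq (GRCm38.p6).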

Additional observations from a re-analysis of the deposited data

How the results depend on the processing

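With 2 libraries per group, intervals of a member's log2 difference were often wider than the difference, and DESeq2, the unfiltered table and a block on the mouse called genes that the reported fit did not. Of 81 member values (9 genes in 9 comparisons), 19 were called, 15 of these under all alternatives, and 23, none of them called, changed sign under some alternative. The cause was not tested. Among values in the text, the WT Treg over non-Treg log2 difference ranged from -0.0115 to 0.21 for P2rx4 and from -0.27 to 1.32 for Art2b with libraries left out, and that of KO over WT Treg cells from -0.29 to 0.45 for Cd38.

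With the mouse number as a block, comparisons within a genotype called 7 members in WT Treg against non-Treg cells (5 without), 5 in KO (3 without), 3 for KO FoxP3+CD25- against KO non-Treg (2 without), 5 against KO Treg (4 without) and 1 for the genotype change in the Treg difference (0 without). All genes called were 2634 (1504 without the block), 1649 (874), 786 (230), 2090 (967) and 148 (0). Across genotypes the samples share only a number, and a block on it changed no member's call, with 4 genes called in Treg (1 without), 108 in non-Treg (20) and 217 for KO FoxP3+CD25- against WT non-Treg cells (106). No other call on a member changed with a block.

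KO FoxP3+CD25- against KO non-Treg cells gave 1 member with only the compared libraries fitted. Against WT non-Treg cells 1 was called without the filter and 1 by DESeq2, as for the genotype change in the Treg difference, against 0 as reported. With libraries left out, the member counts were 0 to 0 for KO against WT non-Treg, 1 to 2 for KO FoxP3+CD25- against KO non-Treg and 0 to 1 for the genotype change, where the 1 came without WT Treg replicate 2.

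Counts over all genes moved more. Without the filter they were 5 for KO against WT Treg, 91 for non-Treg, 411 for KO FoxP3+CD25- against KO non-Treg, 238 against WT non-Treg and 7 for the genotype change, and with DESeq2 5, 111, 366, 217 and 25. With the compared libraries alone they were 0 for KO against WT Treg, 76 for non-Treg and 913 (1548 as reported) for KO FoxP3+CD25- against WT Treg cells. Without WT replicate 1 the count was 706 in WT Treg against non-Treg, 3 and 11 for KO against WT, and 35 and 981 for KO FoxP3+CD25- against WT non-Treg and WT Treg. Pathway genes called (lists checked under the same alternatives after the data were seen) went from 0 to 3 with DESeq2 for KO FoxP3+CD25- against WT non-Treg and from 1 to 4 with the block against KO non-Treg cells.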
